A study of Mus musculus with 47 samples.

Results

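The 10 glycolysis genes *Hk1*, *Hk2*, *Pfkl*, *Pfkm*, *Pfkp*, *Aldoa*, *Gapdh*, *Pgk1*, *Pkm* and *Ldha* were followed in the mouse retina through the day in aged and young animals. They were taken as a list of symbols and matched to Ensembl identifiers, which gave 10 of the 57180 genes measured. Aged C57BL/6 mice of 20 months and young C57BL/6 mice of 6 weeks were kept under 12 h of light and 12 h of dark. Right eyes of 4 mice per age were taken every 4 h, at zeitgeber time (ZT, hours after lights on) 2, 6 and 10 while the light was on and 14, 18 and 22 while it was off. The retinas were dissected under dim red light and their polyadenylated RNA was sequenced. Neither age carried a transgene or received a treatment according to the labels. There were 23 aged libraries (11 in the dark phase and 12 in the light phase) and 24 young libraries (12 in each phase), because aged ZT18 had 3 labelled libraries and every other group had 4. The values are RPKM, reads scaled to exon length in kilobases and to library size in M (mega) reads. Comparisons between genes depend on that length, which joins the exons of all annotated transcripts.

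Glycolysis splits glucose into pyruvate in the cytosol and yields ATP without oxygen. Photoreceptors are known for aerobic glycolysis: they turn most of their glucose into lactate even when oxygen is plentiful. Rods also use more energy in the dark, when their cation channels are open and ions have to be pumped out continuously. Hexokinases (*Hk1*, *Hk2*) trap glucose in the cell, and phosphofructokinases (*Pfkl*, *Pfkm*, *Pfkp*) commit it to the pathway. Aldolase (*Aldoa*) cleaves the hexose, and *Gapdh* and *Pgk1* carry out the oxidation and the first step that makes ATP. Pyruvate kinase (*Pkm*) makes pyruvate, and lactate dehydrogenase A (*Ldha*) turns pyruvate into lactate.

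Promoters are shown for *Hk2*, *Pfkl*, *Pgk1* and *Ldha*, the members whose dark and light values did not overlap in aged retinas, so that the start regions of genes that moved together can be compared. Sequences are from RefSeq (build GRCm38.p6), where all 10 genes were found with 18 promoters in all. The stretch shown is the 250 bases before the annotated start, 5′ to 3′ on the strand of the gene. Capitals mark ACGTG and GCGTG, forms of the core of hypoxia response elements, and CACGTG, the E-box bound by clock and Myc family factors, on either strand. CACGTG holds ACGTG, so the letters overlap.
*Hk2* (chr6:82774455-82774704, minus strand): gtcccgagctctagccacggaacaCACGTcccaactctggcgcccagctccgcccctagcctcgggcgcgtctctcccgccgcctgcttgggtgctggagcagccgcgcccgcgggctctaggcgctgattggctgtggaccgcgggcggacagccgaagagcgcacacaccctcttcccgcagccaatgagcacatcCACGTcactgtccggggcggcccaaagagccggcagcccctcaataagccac
*Pfkl* (chr10:78009808-78010057, minus strand): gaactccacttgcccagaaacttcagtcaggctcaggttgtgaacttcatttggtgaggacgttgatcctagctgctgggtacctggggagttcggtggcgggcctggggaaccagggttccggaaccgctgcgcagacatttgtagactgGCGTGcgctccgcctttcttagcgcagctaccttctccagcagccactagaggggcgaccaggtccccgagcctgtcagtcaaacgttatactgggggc
*Pgk1* (chrX:106186850-106187099, plus strand): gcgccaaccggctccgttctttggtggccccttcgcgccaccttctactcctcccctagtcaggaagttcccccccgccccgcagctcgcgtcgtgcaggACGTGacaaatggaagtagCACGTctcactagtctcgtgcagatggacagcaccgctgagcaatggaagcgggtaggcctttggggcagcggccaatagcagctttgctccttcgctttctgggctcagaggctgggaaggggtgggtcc
*Ldha* (chr7:46845554-46845803, plus strand): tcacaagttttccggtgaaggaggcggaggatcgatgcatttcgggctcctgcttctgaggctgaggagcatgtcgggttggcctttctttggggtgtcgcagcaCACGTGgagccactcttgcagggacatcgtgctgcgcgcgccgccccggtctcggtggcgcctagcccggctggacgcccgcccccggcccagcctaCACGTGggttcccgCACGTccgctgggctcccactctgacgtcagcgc

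Over windows from 250 bases before to 50 bases after the start, ACGTG stood in 10 of the 18 member promoters, against 19.6% of all 32851 promoters in the table. In *Hk2* it lay 226 and 52 bases before the start, and in *Pgk1* 150 and 131 bases before it, while the *Pfkl* promoter held none and had GCGTG 99 bases before the start. CACGTG stood in 2 of the 18, against 7.2% of all promoters, and it occurred at 145 and 48 bases before the *Ldha* start shown, 1 of a pair of starts in the RefSeq table. The sequence just after this start matched the beginning of no GENCODE M21 *Ldha* transcript, so whether this start is used is not known here. The other *Ldha* promoter held neither CACGTG nor ACGTG. The other promoter with CACGTG belongs to *Pfkm*, which did not pass the test between phases. GCGTG stood in 8 of the 18, against 32.4% of all promoters. Promoters of 1 gene can overlap, and a match describes letters only.

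Library totals implied by the steps of the RPKM values ran from 32.0 to 55.5 M reads, with medians of 37.0 M in aged and 37.2 M in young libraries. Each member had at least 2233 reads in every library, so counting error was small beside the spread between mice. Rod markers summed to a median of 18578 RPKM in aged dark, 17903 RPKM in aged light, 19625 RPKM in young dark and 18576 RPKM in young light libraries. Markers of the retinal pigment epithelium, the pigmented layer behind the retina, moved with the phase. Their 9 genes summed to a median of 63.6 RPKM (range 28.9 to 185) in aged dark and 18.6 RPKM (7.51 to 58.7) in aged light libraries. In young libraries the sums were 41.5 RPKM (17.9 to 98.0) in the dark and 15.4 RPKM (5.94 to 38.0) in the light. *Best1* and *Mlana* were at 0 in at least 1 library. Hemoglobin and *Alas2* transcripts summed to 315 RPKM in aged dark and 59.2 RPKM in aged light libraries, against 55.5 RPKM in young dark and 59.1 RPKM in young light libraries. Markers of bipolar cells, a type of retinal interneuron, summed to 116 RPKM in aged dark and 85.6 RPKM in aged light libraries, and to 126 RPKM in young dark and 99.8 RPKM in young light libraries. Lens crystallins ranged from 0.393 to 2268 RPKM over the libraries.

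A pair of libraries stood apart from the others. In young ZT10 replicate 4, *Hk1* was at 279 RPKM, *Aldoa* at 1732 RPKM and *Gapdh* at 83.4 RPKM, each above every other young library, while *Pfkm* was at 12.0 RPKM and *Pfkp* at 22.8 RPKM, each below every other young library. Ganglion cell markers summed to 11.6 RPKM there, against a median of 280.4 RPKM in young light libraries. Markers of Müller glia (249 RPKM, median 875), bipolar cells (27.4 RPKM, median 99.8) and amacrine cells (4.91 RPKM, median 67.4) were also low there. The rod marker sum of that library, 26559 RPKM, was the highest of all libraries. In aged ZT6 replicate 3, *Pfkl* was at 34.0 RPKM, *Aldoa* at 533 RPKM and *Pgk1* at 196 RPKM, the lowest aged value of each. Its Müller glia markers summed to 561 RPKM, the lowest aged sum. Counts of called genes are therefore also given without both libraries. Both are light phase libraries described as apart partly by member values, so p-values of members without them do not allow for that choice. In bulk RNA, a change in the number of cells of a type and a change in the RNA of each cell cannot be told apart.

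*Aldoa*, *Pkm*, *Ldha* and *Pgk1* were the highest members in both ages. Averaged over each age, *Aldoa* was at 1136 ± 236 RPKM in aged (SD, n = 23) and 1118 ± 223 RPKM in young retinas (n = 24). *Pkm* was at 1075 ± 155 RPKM in aged and 1079.8 ± 132 RPKM in young retinas. *Ldha* was at 586 ± 129 RPKM in aged and 599 ± 97.3 RPKM in young retinas, and *Pgk1* at 402 ± 92.9 RPKM in aged and 406 ± 72.2 RPKM in young retinas. *Aldoa* and *Pkm* were closer to each other than 1 SD in both ages. The enzymes that open the pathway were lower. *Hk1* was at 155 ± 20.3 RPKM in aged and 161 ± 29.6 RPKM in young retinas, and *Hk2* at 146 ± 60.0 RPKM in aged and 142 ± 48.0 RPKM in young retinas. *Pfkl* was at 101 ± 23.8 RPKM in aged and 105 ± 17.95 RPKM in young retinas. *Pfkm* (45.4 ± 12.6 RPKM in aged, 46.7 ± 9.68 RPKM in young), *Pfkp* (46.1 ± 9.96 RPKM in aged, 48.5 ± 8.96 RPKM in young) and *Gapdh* (47.8 ± 5.07 RPKM in aged, 46.3 ± 9.00 RPKM in young) lay within 1 SD of each other. The *Gapdh* value is uncertain, because the mouse genome holds many near-identical *Gapdh* copies that can take its reads. The exon length behind it, 4133 bases, joins all annotated transcripts. The same holds for the other members, for example 13401 bases for *Pfkp* and 6675 bases for *Pfkl*, so the order of members depends on these lengths. A second Ensembl identifier carries the symbol *Aldoa* at a mean of 7.66 RPKM and was not used.

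**Figure D1:**
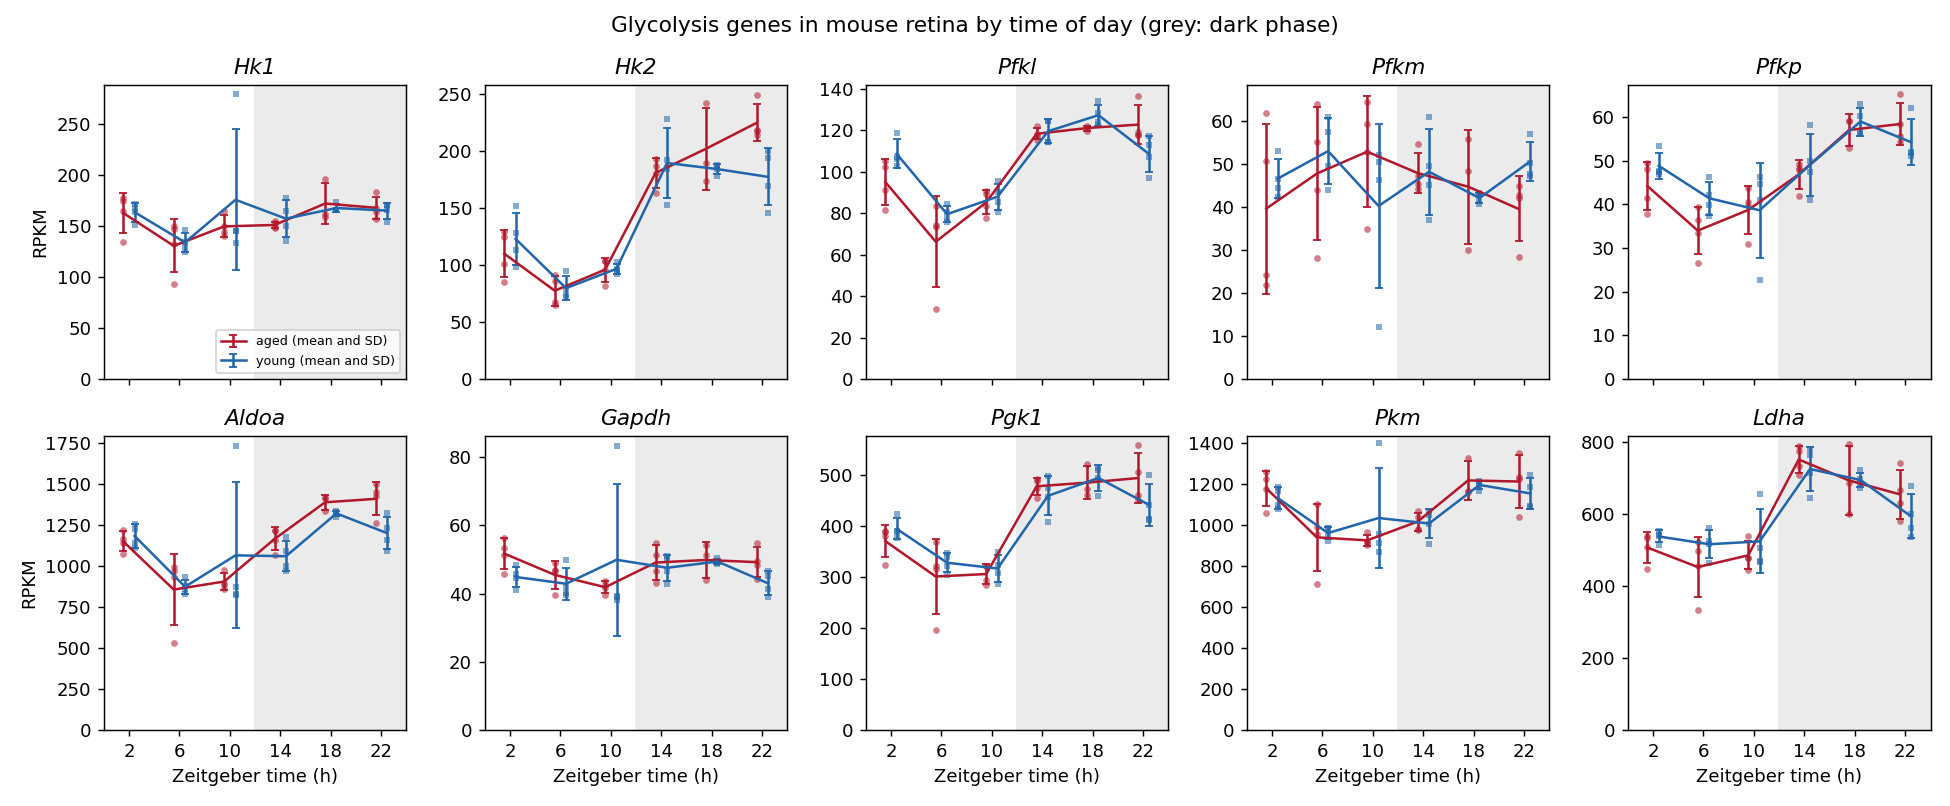
RPKM of the 10 members against zeitgeber time in hours, with 1 point per library and lines through the group means with SD (n = 4, aged ZT18 n = 3), aged in red circles and young in blue squares. Grey marks the dark phase. *Hk2* stands higher at ZT14, ZT18 and ZT22 in both ages, and young ZT10 replicate 4 stands alone at 1732 RPKM in the *Aldoa* panel.

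*Hk2* differed most between the phases of all members, in both ages. In aged retinas 6 of 10 members rose in the dark (*Hk2*, *Pfkl*, *Pgk1*, *Ldha*, *Pfkp* and *Aldoa*), where 6.08% of all 15321 tested genes rose and 13.5% changed in either direction. In young retinas 5 of 10 rose (the same without *Aldoa*), where 4.25% of all genes rose and 16% changed. The median dark minus light difference of the 10 members was 0.47 in aged and 0.29 in young retinas on the log2 scale, against -0.04 in aged and -0.03 in young retinas over all tested genes. No member fell in the dark. These calls are from limma on log2(RPKM + 0.5) at a Benjamini-Hochberg adjusted p under 0.05 over all tested genes. The phases differ in lighting and in clock time together, which cannot be told apart here.

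*Hk2* encodes a hexokinase that docks on mitochondria and is, in the retina, found mainly in photoreceptors. It ranged from 163 to 249 RPKM (median 193) in the 11 aged dark libraries and from 64.8 to 129 RPKM (median 93.4) in the 12 aged light libraries, with no overlap. It ranged from 146 to 228 RPKM (median 185) in young dark libraries and from 71.8 to 152 RPKM (median 96.2) in young light libraries, where the ranges overlapped slightly. The dark minus light difference was 1.11 ± 0.08 log2 units in aged retinas (SE, limma adjusted p = 4.37e-13) and 0.90 ± 0.08 in young retinas (adjusted p = 7.9e-11). *Hk1*, the other abundant hexokinase, ranged from 148 to 196 RPKM in aged dark, 93.5 to 177 RPKM in aged light, 136 to 178 RPKM in young dark and 125 to 279 RPKM in young light libraries. Its difference of 0.16 ± 0.08 in aged and 0.08 ± 0.08 in young retinas did not pass the test (limma adjusted p = 0.228 and 0.596).

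Of the phosphofructokinases, the liver-type *Pfkl* and the platelet-type *Pfkp* rose in the dark and the muscle-type *Pfkm* did not pass the test. *Pfkl* ranged from 116 to 137 RPKM in aged dark libraries and from 34.0 to 105 RPKM in aged light libraries, with no overlap. It ranged from 97.0 to 134 RPKM in young dark and from 75.5 to 119 RPKM in young light libraries, with overlap. The differences were 0.60 ± 0.08 in aged (limma adjusted p = 9.03e-07) and 0.37 ± 0.08 in young retinas (adjusted p = 0.000828). *Pfkp* ranged from 41.8 to 65.2 RPKM in aged dark, 26.6 to 49.4 RPKM in aged light, 40.9 to 62.9 RPKM in young dark and 22.8 to 53.2 RPKM in young light libraries. Its ranges overlapped in both ages, and the differences were 0.48 ± 0.08 in aged (adjusted p = 6.9e-05) and 0.35 ± 0.08 in young retinas (adjusted p = 0.00255). *Pfkm* had medians of 44.8 RPKM in aged dark, 51.6 RPKM in aged light, 46.2 RPKM in young dark and 48.0 RPKM in young light libraries. Its differences were -0.02 ± 0.18 in aged (limma adjusted p = 0.957) and 0.08 ± 0.18 in young retinas (adjusted p = 0.845), and the young one was -0.09 ± 0.13 without both libraries.

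Further down the pathway, *Pgk1*, phosphoglycerate kinase, ranged from 451 to 558 RPKM in aged dark and from 196 to 391 RPKM in aged light libraries. In young retinas it ranged from 408 to 514 RPKM in the dark and from 287 to 424 RPKM in the light. The phases did not overlap in aged retinas and overlapped slightly in young ones, with differences of 0.59 ± 0.07 (limma adjusted p = 1.83e-08) in aged and 0.43 ± 0.06 (adjusted p = 7.8e-06) in young retinas. *Ldha* ranged from 582 to 794 RPKM in aged dark and from 334 to 540 RPKM in aged light libraries, again with no overlap. In young retinas it ranged from 538 to 780 RPKM in the dark and from 465 to 655 RPKM in the light, with overlap. The differences were 0.54 ± 0.07 in aged (adjusted p = 1.24e-07) and 0.35 ± 0.06 in young retinas (limma adjusted p = 0.000172). *Aldoa* had medians of 1337 RPKM in aged dark, 973 RPKM in aged light, 1204 RPKM in young dark and 904 RPKM in young light libraries. Its difference was 0.46 ± 0.09 in aged (adjusted p = 0.000303) and 0.23 ± 0.09 in young retinas (adjusted p = 0.0753), and the young difference was 0.31 ± 0.04 without both libraries (limma adjusted p = 1.72e-07). *Pkm*, whose product catalyses the last ATP-making step, had differences of 0.19 ± 0.07 in aged (limma adjusted p = 0.0521, and under 0.05 without any 1 of 6 libraries) and 0.11 ± 0.06 in young retinas (adjusted p = 0.279). *Gapdh* differed by 0.09 ± 0.08 in aged (limma adjusted p = 0.527) and by 0.05 ± 0.08 in young retinas (adjusted p = 0.745).

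Dark values lay above all light values for 4 members in aged retinas (*Hk2*, *Pfkl*, *Pgk1* and *Ldha*), where 0.62% of all tested genes did so, and for 0 in young retinas, where 0.228% did. The dark minus light difference was not tested between ages. Without the 2 libraries that stood apart, 7 members rose in the dark in aged retinas (*Pkm* added; 9.17% of all 15272 genes tested then rose). In young retinas 9 rose, every member but *Pfkm*, where 6.48% of all genes did. Without young ZT10 replicate 4 alone 8 members rose in young retinas, and without aged ZT6 replicate 3 alone 6 did. With each library left out in turn, 2110 to 3430 of all genes changed in either direction in young retinas. With the mean log2 levels of the pigment epithelium and lens markers as covariates, 5 members passed the test in each age, and *Aldoa* no longer did in aged retinas (limma adjusted p = 0.0698), where its difference was 0.45 ± 0.14, against 0.46 ± 0.09 without covariates. Of the 6 pigment epithelium markers that were tested, 5 rose in the dark in aged and 4 in young retinas. Their part in the result was not tested beyond the covariate fit, for which the share of all genes is not given here. Over the alternatives other than leaving out 1 library, 462 to 4651 of all genes passed in aged and 1480 to 5280 in young retinas.

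**Figure D2:**
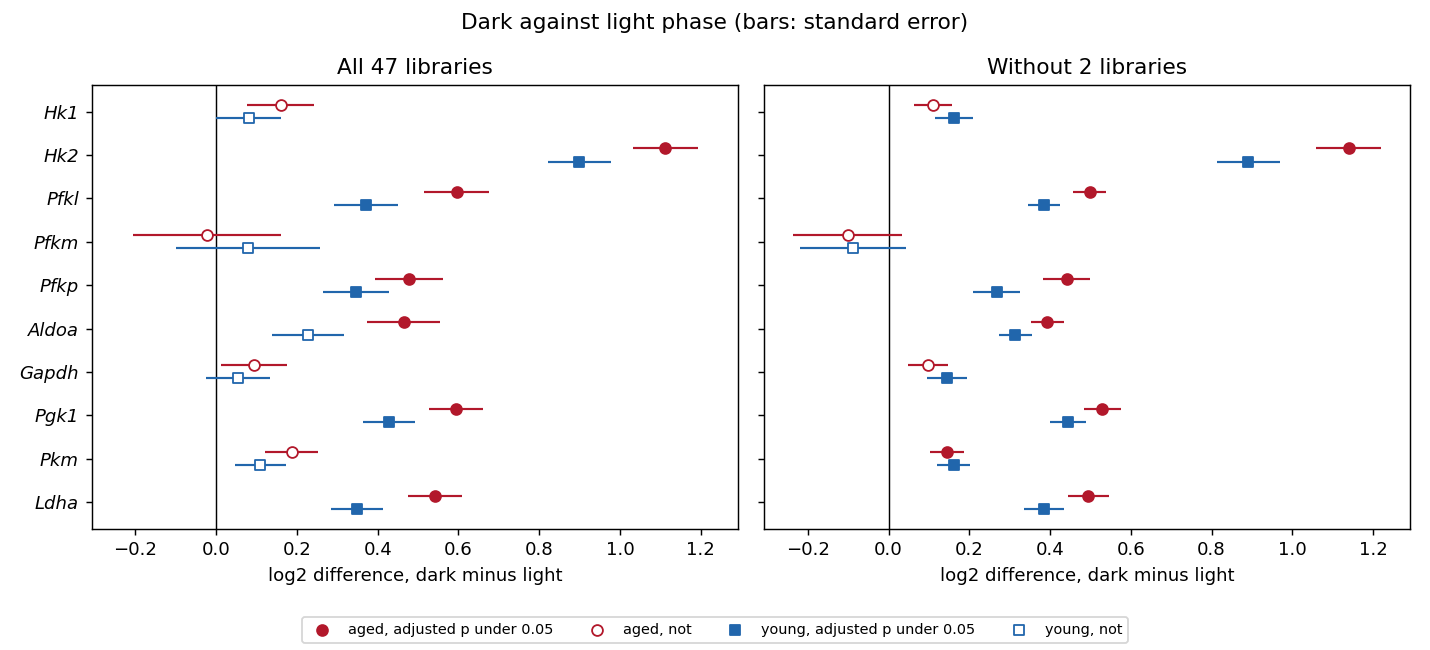
Dark minus light difference of each member in log2 units with SE, aged in red circles above young in blue squares, from all 47 libraries (left) and with both libraries that stood apart left out (right). Filled symbols passed an adjusted p of 0.05, and *Hk2* lies farthest to the right, at 1.11 in aged and 0.90 in young retinas.

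A 24 h cosine fit showed when the members peaked. In aged retinas 7 of 10 members were rhythmic (*Hk2*, *Pfkl*, *Pfkp*, *Aldoa*, *Pgk1*, *Pkm* and *Ldha*), where 14.4% of all tested genes were. In young retinas 6 were (the same without *Pkm*), where 19.7% of all genes were, and 7.56% of all genes were rhythmic in both ages. The 6 members rhythmic in both ages peaked between 17.6 and 19.8 h in aged and between 17.0 and 20.1 h in young retinas, in the middle of the dark phase. For each of these 6, the peaks of the ages lay within 0.644 h. This fit and the dark minus light contrast use the same libraries, so they are not independent.

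*Hk2* had the largest amplitude of the members. In aged retinas its light phase means were 110.0 ± 20.8 RPKM (ZT2), 77.5 ± 13.2 RPKM (ZT6) and 96.0 ± 10.5 RPKM (ZT10), and its dark phase means 181 ± 13.0 RPKM (ZT14), 202 ± 35.9 RPKM (ZT18) and 225 ± 16.1 RPKM (ZT22), with SD and n = 4 (ZT18 n = 3). In young retinas the light phase means were 123 ± 22.7 RPKM (ZT2), 79.8 ± 10.3 RPKM (ZT6) and 96.8 ± 4.44 RPKM (ZT10), and the dark phase means 189.6 ± 31.0 RPKM (ZT14), 184 ± 4.20 RPKM (ZT18) and 177 ± 25.1 RPKM (ZT22), with SD and n = 4. Both ages were lowest at ZT6, the middle of the light phase, and their highest means were at ZT22 in aged and at ZT14 in young retinas. The fitted amplitude was 0.82 ± 0.07 in aged (limma adjusted p = 1.47e-07) and 0.65 ± 0.06 log2 units in young retinas (adjusted p = 8.33e-07). This amounted to a peak 3.12-fold above the trough in aged and 2.48-fold in young retinas.

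*Ldha* peaked earliest, at 17.6 ± 0.534 h in aged and 17.0 ± 0.679 h in young retinas, with means of 752 ± 36.5 RPKM in aged and 725 ± 60.8 RPKM in young retinas at ZT14. *Pfkl* peaked at 18.5 ± 0.614 h in aged and 18.6 ± 0.51 h in young retinas, and *Pgk1* at 18.8 ± 0.502 h in aged and 18.9 ± 0.472 h in young retinas. *Pfkp* followed at 19.4 ± 0.464 h in aged and 20.1 ± 0.787 h in young retinas, and *Aldoa* at 19.8 ± 0.536 h in aged and 19.9 ± 1.06 h in young retinas. *Aldoa* still stood at 1150.2 ± 61.0 RPKM in aged and 1184 ± 70.4 RPKM in young retinas at ZT2, after lights on, and at 857 ± 217 RPKM in aged and 874 ± 43.3 RPKM in young retinas at ZT6. *Pkm* peaked latest of the rhythmic members, at 21.2 ± 0.767 h in aged retinas (limma adjusted p = 0.00469). In young retinas its fitted peak was at 20.9 ± 1.2 h without passing the test (limma adjusted p = 0.0661). The difference in peak time between members was not tested.

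Amplitudes were 0.47 ± 0.08 in aged and 0.30 ± 0.04 in young retinas for *Pfkl*, and 0.44 ± 0.06 in aged and 0.32 ± 0.04 in young retinas for *Pgk1*. They were 0.40 ± 0.05 in aged and 0.30 ± 0.06 in young retinas for *Pfkp*, 0.40 ± 0.06 in aged and 0.24 ± 0.07 in young retinas for *Aldoa*, and 0.39 ± 0.06 in aged and 0.26 ± 0.05 in young retinas for *Ldha*. All 6 fitted amplitudes of the members rhythmic in both ages were larger in aged retinas, but no member passed the test of a different rhythm (smallest limma adjusted p = 0.606), and 0.00653% of all genes did. At an unadjusted limma p under 0.05 there were 0 members, and voom gave 0 adjusted calls. Without both libraries 8 members were rhythmic in both ages (19.4% of all genes), of which 7 had the larger amplitude in aged retinas, and the smallest adjusted p was 0.731 (limma). *Hk1*, *Gapdh* and *Pfkm* did not pass the rhythm test in either age (limma adjusted p = 0.0815, 0.145 and 0.318 in aged, 0.590, 0.658 and 0.729 in young retinas).

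Without both libraries, 8 members were rhythmic in aged retinas (*Hk1* added, limma adjusted p = 0.0429), where 27.4% of all genes were. In young retinas 8 were (*Hk1* and *Pkm* added), where 34.1% of all genes were. Leaving out aged ZT6 replicate 3 alone brought in *Hk1* in aged retinas, and leaving out young ZT10 replicate 4 alone brought in *Hk1* and *Pkm* in young retinas. *Aldoa* in young retinas was near the threshold (limma adjusted p = 0.0335), and leaving out any 1 of 12 young libraries (all of ZT6 and ZT18, ZT10 replicates 1 to 3 and ZT22 replicate 4) put it above 0.05, up to 0.0666. With the pigment epithelium and lens covariates, 2 members (*Hk2* and *Pfkp*) passed the rhythm test in aged retinas and 5 in young retinas. The fitted amplitudes of the 5 aged members that no longer passed were then 0.44 ± 0.13 (*Pfkl*), 0.39 ± 0.10 (*Pgk1*), 0.34 ± 0.09 (*Aldoa*), 0.34 ± 0.09 (*Ldha*) and 0.21 ± 0.07 (*Pkm*), close to those without covariates and with larger errors (limma adjusted p from 0.0869 to 0.154). With the same covariates and without both libraries, 7 passed in aged and 8 in young retinas. The share of all genes in the covariate fits is not given here. Over the alternatives other than leaving out 1 library, 297 to 6023 of all genes were rhythmic in aged and 1940 to 7069 in young retinas. The pigment epithelium gene *Rpe65* itself peaked at 17.7 h in aged and 18.4 h in young retinas.

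**Figure D3:**
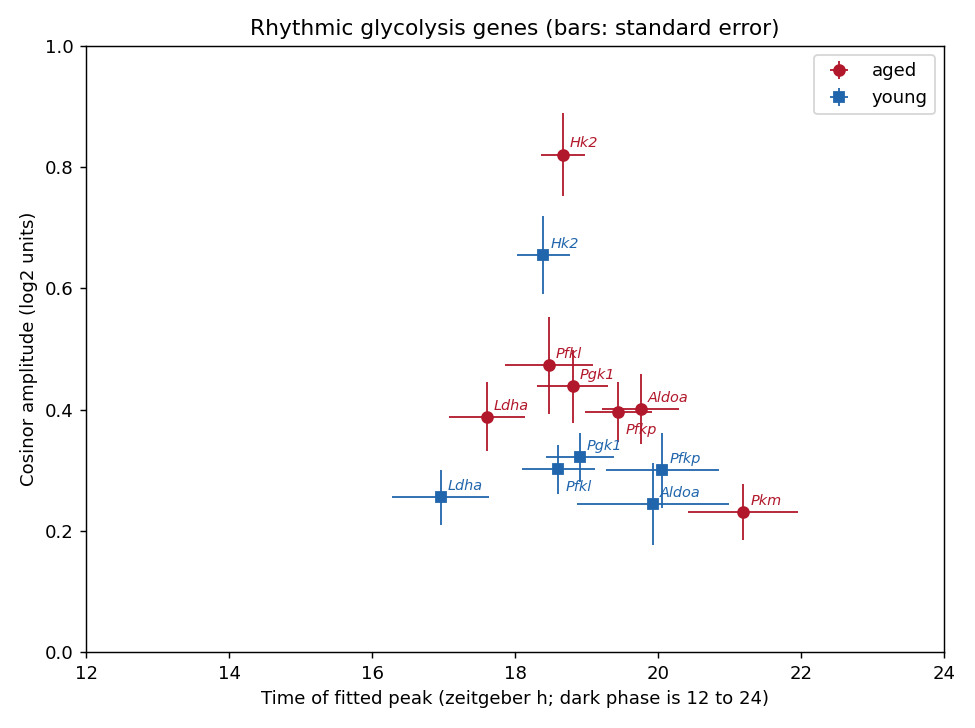
Fitted amplitude in log2 units against fitted peak time in zeitgeber hours for the members with an adjusted p under 0.05 in each age, aged in red circles and young in blue squares, with SE bars. All points lie in the dark phase, from *Ldha* at 17.0 h in young to *Pkm* at 21.2 h in aged retinas.

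The members were then compared between ages over all times. From all libraries, 0 of 10 members passed the test of aged minus young, where 4.24% of all tested genes did and 0.49% did so with a fold over 1.5. None had an unadjusted p under 0.05, and limma voom on reads recovered from the RPKM steps also gave 0. The differences ran from -0.08 ± 0.06 (*Pfkl*, limma adjusted p = 0.555) to 0.06 ± 0.06 log2 units (*Gapdh*, adjusted p = 0.687), and *Hk2* was at 0.03 ± 0.06 (adjusted p = 0.893). The 95% intervals of 9 members lay within 0.873-fold to 1.13-fold, and that of *Pfkm*, the most variable, was 0.806-fold to 1.15-fold. A miss of the threshold does not show that the ages had the same level.

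Without the 2 libraries that stood apart, *Aldoa* was higher in aged retinas by 0.11 ± 0.03 log2 units (limma adjusted p = 0.0101) and *Gapdh* by 0.11 ± 0.03 (adjusted p = 0.0287). These 2 of 10 members are near the 16.6% of all genes tested that passed. Young ZT10 replicate 4 was described as apart by its high *Aldoa* and *Gapdh*, and aged ZT6 replicate 3 by its low *Aldoa*. Leaving them out raises these differences by the choice itself, and the p-values do not allow for that choice. The interval for *Aldoa* without both libraries was 1.04-fold to 1.12-fold. *Aldoa* was at 1163 ± 201 RPKM in aged (n = 22) and 1091 ± 184 RPKM in young retinas (n = 23), and *Gapdh* at 47.9 ± 5.18 RPKM in aged and 44.7 ± 4.42 RPKM in young retinas. The difference of each was smaller than its SD over all times. That SD includes the changes over the day, which the age test took out with its time factor. Without young ZT10 replicate 4 alone, *Gapdh* passed the test (limma adjusted p = 0.0361) and *Aldoa* did not. The other members did not pass in either fit.

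At single times, 0 of 10 members passed, where the share of all genes that passed was 0.144% (ZT2), 3.12% (ZT6), 0.496% (ZT10), 0.248% (ZT14), 0.255% (ZT18) and 0.17% (ZT22). From all libraries, 2 members were under an unadjusted limma p of 0.05 at ZT6, 1 at ZT22 and 0 at the other times. Voom also gave 0 adjusted calls. Without both libraries that stood apart, *Aldoa*, *Hk2*, *Pfkl*, *Gapdh* and *Pgk1* were under that unadjusted p at ZT22. *Pfkl* and *Gapdh* were then under it at ZT2, and *Aldoa* at ZT14. None of these passed after adjustment (smallest limma adjusted p = 0.096, *Aldoa* at ZT22). The 1 member at ZT22 from all libraries was *Hk2*, at 214 to 249 RPKM in the 4 aged libraries and at 146 to 201 RPKM in the 4 young libraries. That difference of 0.35 ± 0.14 log2 units had an unadjusted limma p of 0.014 and an adjusted p of 0.869. *Pfkl* at ZT6 differed by -0.34 ± 0.14 (limma adjusted p = 0.155). That difference was -0.05 ± 0.07 without both libraries, so it rested on aged ZT6 replicate 3, and it passed the test without aged ZT6 replicate 2 (-0.47 ± 0.14, limma adjusted p = 0.0283). From all libraries, the age by time interaction was passed by 0 of 10 members and 0% of all genes (smallest adjusted p of a member 0.838, limma). It had 0 members at an unadjusted p under 0.05 and 0 by voom. Without both libraries *Pfkl* had an unadjusted limma p of 0.0164 for the interaction (adjusted p = 0.659).

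**Figure D4:**
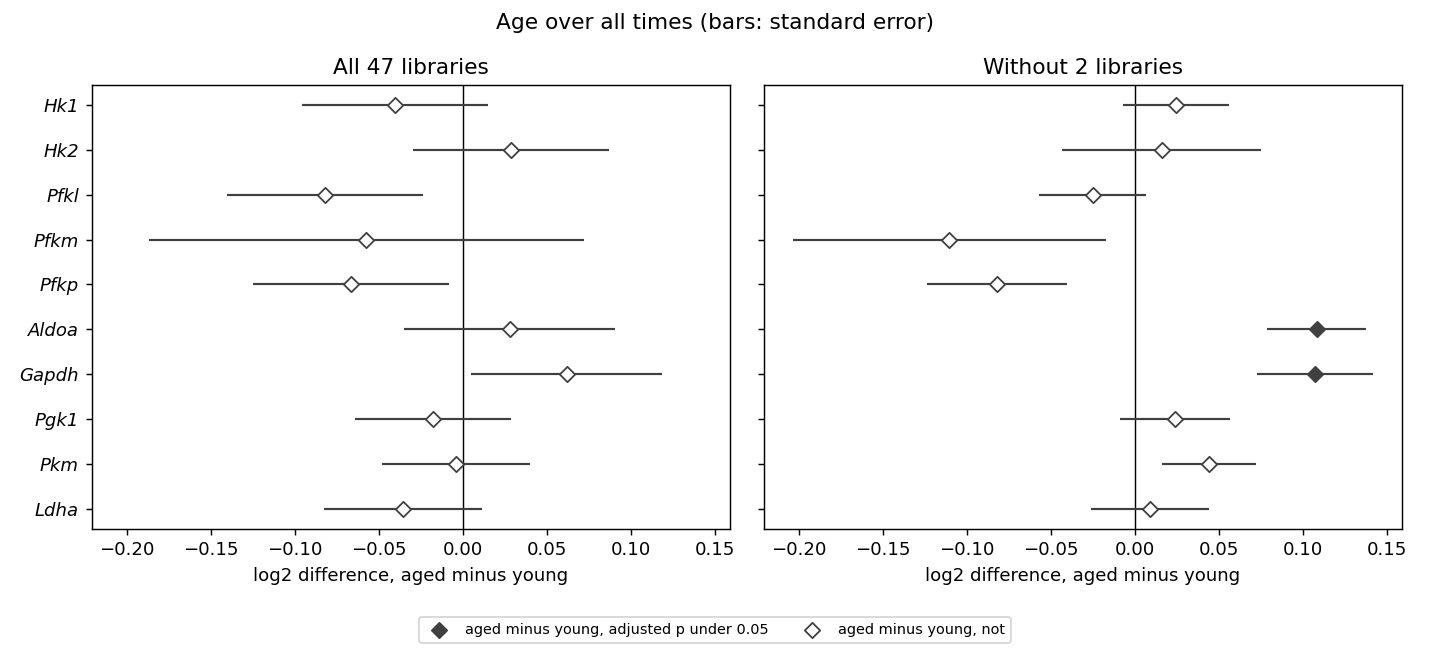
Aged minus young difference over all times in log2 units with SE for each member, from all 47 libraries (left) and with both libraries that stood apart left out (right). Filled diamonds passed an adjusted p of 0.05, which only *Aldoa* and *Gapdh* did, in the right panel at 0.11 each.

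The make-up of each isozyme family shifted with the phase for the hexokinases. *Hk2* made up 55.1 ± 1.98% of hexokinase RPKM in aged dark and 38.7 ± 4.76% in aged light libraries (SD, n = 11 and 12). In young libraries it made up 52.6 ± 2.15% in the dark and 38.7 ± 5.38% in the light (SD, n = 12 each). *Hk1* held most of the rest. *Pfkl* made up 55.3 ± 3.40% of phosphofructokinase RPKM in aged dark and 48.9 ± 6.29% in aged light libraries, and 54.0 ± 3.79% in young dark and 51.1 ± 8.02% in young light libraries. *Ldha* made up 84.7 ± 2.84% of lactate dehydrogenase RPKM in aged dark and 78.7 ± 4.58% in aged light libraries, and 85.5 ± 1.98% in young dark and 82.2 ± 3.44% in young light libraries. These shares depend on the exon length of each gene and are not molecule counts of protein, and the phases were compared here without a test.

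Between ages, none of 5 isozyme ratios passed a two-sided permutation test with 100000 resamples within times, adjusted over the 5. The log2 ratio of *Ldha* to *Ldhb*, the heart-type subunit that favours pyruvate, was 2.19 ± 0.47 in aged (n = 23) and 2.41 ± 0.36 in young retinas (n = 24). The difference of -0.21 was negative at 5 of 6 times (permutation p = 0.0512, adjusted 0.256). The other differences were 0.07 for *Hk2* over *Hk1* (adjusted permutation p = 0.553), 0.03 for *Pfkm* over *Pfkl* (0.858), 0.02 for *Pfkp* over *Pfkl* (0.858) and 0.10 for *Aldoa* over *Aldoc* (0.553). The *Aldoa* over *Aldoc* difference was 0.17 without young ZT10 replicate 4 (adjusted permutation p = 0.0492).

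Other genes of glucose use were read from lists of the same pathway. Their counts stand beside 13.5% (aged) and 16% (young) of all tested genes that changed between phases, 14.4% (aged) and 19.7% (young) that were rhythmic, and 4.24% that differed with age. Of 14 tested glycolytic enzymes outside the members, 4 rose and 1 fell in the dark in aged retinas, and 1 rose and 1 fell in young retinas. *Pgam1*, phosphoglycerate mutase, rose by 0.51 ± 0.07 in aged (limma adjusted p = 2.53e-06) and by 0.33 ± 0.07 in young retinas (adjusted p = 0.00122). *Tpi1*, triose phosphate isomerase, rose by 0.43 ± 0.09 in aged retinas (limma adjusted p = 0.00117), and its difference was 0.25 ± 0.09 in young retinas (adjusted p = 0.0556). *Eno1* and *Gpi1* rose in aged retinas by 0.18 ± 0.05 and 0.22 ± 0.06, while *Hkdc1*, a hexokinase-like gene, fell by 0.38 ± 0.13 on the log2 scale in aged retinas. *Eno3*, the muscle enolase, fell by 0.41 ± 0.11 in young retinas. Of the same 14, 5 were rhythmic in aged and 5 in young retinas, and 0 passed the limma test of age (2 at an unadjusted p under 0.05). *Pgam1* peaked at 19.5 h in aged and 19.1 h in young retinas, *Adpgk*, an ADP-dependent glucokinase, at 12.1 h in aged retinas, and *Eno3* at 8.51 h in young retinas.

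The lactate exporter and other transporters rose in the dark as well. Of 8 tested genes of glucose and lactate transport, 4 rose in the dark in each age, 4 were rhythmic in each age, and 1 was lower with age. *Slc16a3*, the lactate exporter MCT4, ranged from 22.2 to 43.1 RPKM in aged dark and from 5.50 to 14.8 RPKM in aged light libraries. In young retinas it ranged from 21.2 to 43.2 RPKM in the dark and from 12.6 to 18.8 RPKM in the light, and the phases overlapped in neither age. The dark minus light difference was 1.24 ± 0.09 in aged (limma adjusted p = 1.51e-12) and 0.98 ± 0.09 in young retinas (adjusted p = 5.13e-10), with peaks at 17.3 h in aged and 17.0 h in young retinas. It was lower in aged retinas over all times, by -0.27 ± 0.07 (limma adjusted p = 0.0232), at 20.5 ± 10.2 RPKM in aged and 24.1 ± 9.88 RPKM in young retinas. *Slc2a1*, the glucose transporter GLUT1, was at 78.2 ± 10.3 RPKM in aged dark and 49.3 ± 8.43 RPKM in aged light libraries, and at 77.2 ± 10.6 RPKM in young dark and 50.9 ± 8.29 RPKM in young light libraries. It rose in the dark by 0.65 ± 0.08 in aged and 0.61 ± 0.08 in young retinas. *Bsg*, basigin, the partner that carries these lactate transporters to the membrane, rose by 0.23 ± 0.06 in aged and 0.18 ± 0.06 in young retinas. *Slc16a8*, a lactate transporter of the pigment epithelium, rose by 1.39 ± 0.19 in aged and 0.94 ± 0.19 in young retinas, as *Rpe65* did by 2.21 ± 0.28 in aged and 1.36 ± 0.27 in young retinas.

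**Figure D5:**
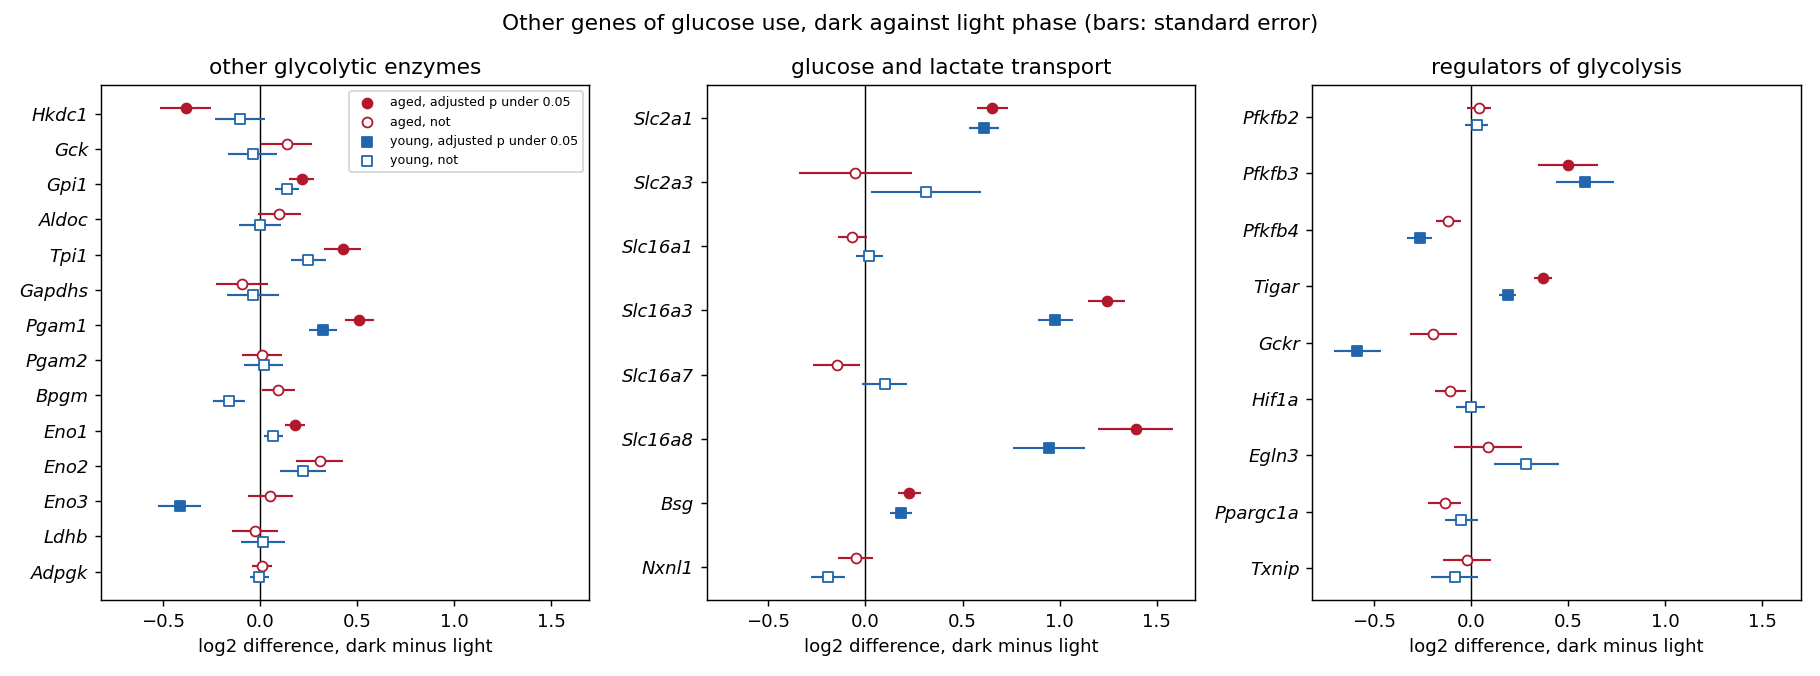
Dark minus light difference in log2 units with SE for tested genes of 3 lists outside the members, aged in red circles above young in blue squares, with filled symbols at an adjusted p under 0.05. *Slc16a3* (1.24 in aged, 0.98 in young) and *Slc16a8* (1.39 in aged, 0.94 in young) lie farthest to the right.

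Of 9 tested regulators of glycolysis, 2 rose in the dark in aged retinas, and 2 rose and 2 fell in young retinas. *Pfkfb3*, whose product makes the activator of phosphofructokinase, rose by 0.50 ± 0.15 in aged (limma adjusted p = 0.0234) and by 0.59 ± 0.15 in young retinas (adjusted p = 0.00502). *Tigar*, whose product removes that activator, rose as well, by 0.37 ± 0.05 in aged and 0.19 ± 0.04 in young retinas. *Gckr*, the glucokinase regulator, fell by 0.58 ± 0.12 on the log2 scale in young retinas and *Pfkfb4* by 0.26 ± 0.06. In aged retinas *Gckr* differed by -0.19 ± 0.12 and *Pfkfb4* by -0.12 ± 0.07 without passing. Rhythms were found for 2 of the 9 in aged and 3 in young retinas, and 0 passed the limma test of age (2 at an unadjusted p under 0.05). *Hif1a*, the hypoxia factor subunit, differed between phases by -0.11 ± 0.08 in aged and by -0.0020 ± 0.08 in young retinas (limma adjusted p = 0.436 and 0.991).

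The lists beyond pyruvate and in the side branches were counted in the same way. Of 12 tested genes of pyruvate entry into mitochondria, 0 passed the limma test between phases in aged retinas (0 also at an unadjusted p under 0.05) and 1 fell in the dark in young retinas, with 3 rhythmic in aged and 1 in young retinas. *Pdp2*, which reactivates pyruvate dehydrogenase, was higher with age by 0.22 ± 0.04 (limma adjusted p = 0.00111), at 7.36 ± 1.04 RPKM in aged and 6.24 ± 0.764 RPKM in young retinas. Of 14 genes of glycogen and the pentose phosphate path, 1 rose in the dark in each age, 4 were rhythmic in aged and 0 in young retinas (3 at an unadjusted limma p under 0.05). *Pygm*, muscle glycogen phosphorylase, was higher with age by 0.21 ± 0.07 (limma adjusted p = 0.0477), at 41.7 ± 7.48 RPKM in aged and 35.6 ± 4.88 RPKM in young retinas. Of 7 genes of the glycerol phosphate and malate shuttles, 2 were rhythmic in aged and 1 in young retinas, and *Got1* was among them in both, with peaks at 18.7 h in aged and 19.9 h in young retinas. Lists and members were not tested against each other.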

How the data were processed

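RNA of whole retinas was sequenced and the authors deposited 1 table of RPKM per gene and library. FastQC 0.23.4, HISAT2 2.2.1, Subread 2.0.6 and build GRCm39 are listed, without roles, in the submitters' processing notes. Strand setting and annotation: not given in the sources used here, so antisense reads may be included. Each library is a separate mouse according to the labels. 1 column matched no labelled sample and was not used. Gene names and exon lengths came from GENCODE M21 (51884 of 57180 identifiers matched). With those lengths, 93.8% of 34945 genes came out as whole reads in every library within 0.01, which gave the depths.

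RPKM was tested with limma 3.58.1 (R 4.3.3; empirical Bayes with trend) as log2(RPKM + 0.5), on the 15321 genes that reached 0.5 RPKM in 12 or more libraries. This scale understates changes of low genes. Age was 1 term beside a 6-level time factor in a fit of all libraries, age at single times and phase were contrasts of the group means over all libraries, rhythm was a 24 h cosine within each age, and p-values were Benjamini-Hochberg adjusted over all tested genes. The count-based test named in the series text could not be run on RPKM. As an alternative, limma voom on recovered reads (14864 genes) was used. Fits were tested on simulated data. Ratios used permutations in Python 3.11.15 (numpy 2.4.6, pandas 2.3.3), and figures matplotlib 3.10.9.

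The members and all gene lists were chosen with earlier results of these data known. All members are described. Of each other list, the genes that passed with the smallest adjusted p for age or rhythm (up to 3 each) could be named, and *Gpi1*, *Hkdc1* and *Hif1a* were named after their values were seen. Alternatives were other scalings, filters, pseudocounts, array weights, a replicate block, voom, and leaving out each library. The marker covariates and the joint omission of 2 libraries (young ZT10 replicate 4, and replicate 3 of aged ZT6) were also run. voom and the combinations of that omission with covariates, median-ratio scaling or the block were chosen after seeing the data.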

Additional observations from a re-analysis of the deposited data

Results flagged for a closer look

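A value was picked out where, among the 4 libraries of an age and time, the gap between the extreme library and its nearest neighbour as a share of the whole range, exceeded Dixon's 95% critical value. This held in 13 of 110.0 groups of a gene, age and time, and chance gives about 1 in 20, or 5.5 groups. Groups of 1 library share that library, so these are not independent.

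Young ZT10 replicate 4 accounted for 5 of them. *Hk1* was at 279.2 RPKM there (133 to 146 in the other libraries), *Aldoa* at 1732 RPKM (826 to 874), *Gapdh* at 83.37 RPKM (38.2 to 39.2) and *Pkm* at 1398 RPKM (868 to 955). *Pfkm* was at 12.04 RPKM there (46.2 to 52.1). Aged ZT22 replicate 3 accounted for 3, with *Hk2* at 248.8 RPKM (214 to 218), *Pfkl* at 136.7 RPKM (117 to 119) and *Pfkm* at 28.32 RPKM (42.2 to 44.8). In aged ZT6 replicate 3, *Aldoa* was at 533.1 RPKM (935 to 992), and in aged ZT2 replicate 4, *Pgk1* was at 323.6 RPKM (380.1 to 391). *Pfkp* was at 53.25 RPKM in young ZT2 replicate 1 (46.9 to 47.6) and at 62.09 RPKM in young ZT22 replicate 2 (51.1 to 51.9). *Hk1* was at 173.3 RPKM in young ZT18 replicate 3 (165.5 to 166.2). The cause of these values was not tested.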

How the results depend on the processing

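The dark phase and rhythm counts kept to 6 to 7 members (aged, dark), 5 to 8 (young, dark), 7 to 8 (aged, rhythm) and 5 to 8 (young, rhythm) when each library was left out in turn. The counts of all genes then ran from 1700 to 2970 (aged, phase), 2110 to 3430 (young, phase), 1730 to 4190 (aged, rhythm) and 2610 to 5200 (young, rhythm). The age count over all times and the ZT6 count of members each ran from 0 to 1, with 567 to 1520 and 112 to 1480 of all genes. Without both libraries that stood apart, also with covariates, median-ratio scaling or the replicate block, and under array weights, age passed for 2 members and young dark for 9. For age, 16.6% of all genes passed without both libraries and 15.6% under array weights, so 2 of 10 members is near those shares. Between phases in young retinas, 26.9% of all genes changed in either direction without both libraries and 34.5% under array weights. Array weights also gave 4 members for age at ZT2 (21.8% of all genes, against 0.144% without weights), 1 at ZT22 (2.35%, against 0.17%) and 1 for the interaction (10.4%, against 0%). Covariates left 2 aged rhythms at amplitudes close to the unadjusted ones, and 7 once both libraries were also left out. The count of all rhythmic genes in aged retinas ran from 297 to 6023 over the alternatives other than leaving out 1 library.

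Among age over all times, dark minus light and the ratios, values that changed sign were all small and passed no test. Age differences at single times were not followed over the alternatives. Some of those changed sign without both libraries, such as *Gapdh* at ZT10 (-0.16 to 0.11) and *Pfkp* at ZT10 (0.04 to -0.19). *Pkm* age (-0.0040) became 0.012 under median-ratio scaling, 0.024 under array weights, 0.0070 with covariates, and 0.044 without both libraries (0.057 with covariates, 0.066 with median-ratio scaling, 0.046 with the block). *Aldoa* age (0.03) became -0.022 under quantile normalization. Under array weights, *Hk1* age (-0.04) became 0.0083 and *Pgk1* age (-0.02) became 0.025. Without both libraries *Hk1* age was 0.024 (covariates 0.052, median-ratio 0.046, block 0.024), *Pgk1* 0.024 (0.019, 0.046, 0.029) and *Ldha* 0.0089 (0.016, 0.031, 0.012). *Pfkm* dark minus light became 0.011 (median-ratio) and 0.074 (array weights) in aged retinas. In young retinas it became -0.088 (array weights), -0.0055 (covariates) and -0.088 without both libraries (-0.11 with covariates, -0.0061 with median-ratio scaling, -0.093 with the block). Without both libraries the ratios became -0.014 (*Hk2* over *Hk1*), -0.075 (*Pfkm* over *Pfkl*) and -0.061 (*Pfkp* over *Pfkl*). Leaving out 1 library gave ranges of -0.015 to 0.022 (*Pkm* age), -0.031 to 0.015 (*Pgk1* age), -0.10 to 0.063 (*Pfkm* dark, aged) and -0.088 to 0.14 (*Pfkm* dark, young). For ratios the ranges were -0.065 to 0.070 (*Pfkm* over *Pfkl*) and -0.031 to 0.035 (*Pfkp* over *Pfkl*). The *Aldoa* over *Aldoc* difference kept its sign, at 0.074 to 0.17, and passed without young ZT10 replicate 4 (adjusted permutation p = 0.0492). The cause was not tested.

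The replicate number as a block gave 7 aged and 6 young rhythms, 6 aged and 5 young dark calls and 0 for age. The share of all genes under the block is not given here. Correlations of same-numbered libraries ran from -0.486 to 0.428 over 23 pairs. Of these, 10 were over 0.1, including all 4 at ZT22, and 7 were best with their own number, so the numbers were not taken to pair mice. With time as a 6-level factor, *Pkm* in aged (limma adjusted p = 0.0543) and *Aldoa* in young retinas (0.114) lost their rhythm. *Aldoa* in young retinas rose in the dark without aged ZT6 replicate 3 (limma adjusted p = 0.0217). voom added *Pkm* in aged dark (adjusted p = 0.0394) and young rhythm (0.0391). Precision is set by the spread between mice at 4 libraries per time rather than by depth.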
